A study of Homo sapiens with 6 samples.

Results

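Human DNA replication needs a ring, a loader and a set of polymerases, and the transcripts of 10 genes of that core were followed here: *PCNA*, *RFC1*, *RFC2*, *RFC3*, *RFC4*, *RFC5*, *POLA1*, *POLD1*, *POLE* and *FEN1*. They were chosen by name, as the sliding clamp, the subunits of its loader, the catalytic subunits of the replicative polymerases and the flap endonuclease. The choice was made with earlier results of these data known, so the shares given below describe the 10 genes and are no test. Each name matched 1 row of the 63677 Ensembl genes counted, and all 10 passed the filter on low counts that left 12507 genes for testing. Cells labelled LoVo, an established human colorectal cancer line, had received, for 48 h at 25 nM and with Lipofectamine in both conditions, either a pool of 2 siRNAs to the long non-coding RNA *SNHG15* or a control siRNA (scramble), and 3 libraries of each were sequenced. Because the siRNAs were given together, effects of each cannot be told apart.

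PCNA is a ring of identical subunits that encircles DNA and holds polymerases on it. The ring is opened and closed by replication factor C, in which the large subunit RFC1 joins the small subunits RFC2 to RFC5. Polymerase alpha, whose catalytic subunit is POLA1, extends the primer, polymerase epsilon (POLE) copies the leading strand, and polymerase delta (POLD1) copies the lagging strand, where the nuclease FEN1 removes the flaps between Okazaki fragments. These genes are transcribed most in cells that prepare for or pass through S phase, largely under E2F factors.

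*SNHG15* was reduced to 29.9% of its scramble level, with 290, 277 and 261 CPM (read counts scaled to a common library total) in the scramble and 77.2, 83.1 and 87.2 CPM in the siRNA libraries (edgeR adjusted p = 2.62e-05). Library totals lay between 3446922 counts, in scramble replicate 3, and 10256710 counts. Replicates differed by more than the drawing of reads, their chi-square divided by its degrees of freedom being between 4.18 and 20.5, and the highest values, 14.4 and 20.5, came from the pairs that hold siRNA replicate 1. Of 9 markers of colorectal epithelium, *EPCAM*, *VIL1*, *KRT19*, *KRT20* and *CEACAM5* had 3 or fewer counts in every library, while *KRT8*, *KRT18*, *CDH1* and *CDX2* were read, the last, an intestinal transcription factor, at 27.9 ± 1.37 CPM in scramble and 25.9 ± 0.741 CPM in siRNA libraries (SD, n = 3 each). The summed level of the 9 markers was between 102 and 110 CPM in scramble libraries and between 106 and 117 CPM in siRNA libraries, but its parts did not move alike. *CDH1*, the epithelial cadherin, was at 58.9% of its scramble level, with each siRNA library under each scramble library (7.52 ± 1.05 against 4.43 ± 1.19 CPM, SD, n = 3 each; edgeR adjusted p = 0.0945), and *KRT8* was at 119% (edgeR adjusted p = 0.369). The part of these markers in the results was not tested. Markers of fibroblasts summed to at most 1.25 CPM, those of immune cells to at most 0.139 CPM and those of endothelial cells to at most 0.234 CPM in any library. The label as LoVo is therefore kept as a label only, since 5 of the 9 epithelial markers were at or near 0.

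At an adjusted p under 0.05 (edgeR quasi-likelihood test, Benjamini-Hochberg over all genes tested), 671 of 12507 genes changed, which is 5.36%, with 2.23% lower and 3.13% higher upon *SNHG15* depletion. The share of lower genes among those called was 41.6%, and it was 30.9% with upper-quartile scaling, 49.9% with DESeq2 and 55.6% with an offset for GC content. Among the replication genes, *PCNA* and *RFC5* fell, which is 2 of 10 against the 2.23% of all genes. *PCNA* was reduced to 68.0% and *RFC5* to 70.6% of the scramble level. *RFC4* and *POLE* had values of the same size that missed the threshold, and *RFC1* was the only gene of the 10 with a mean above that of the scramble libraries. In 9 of 10 genes the fold change was below 0, against 49.9% of all genes, and the median of the 10 was -0.37 on the log2 scale against 0.0005 over all genes tested. In *PCNA*, *RFC2*, *RFC4* and *RFC5* the highest siRNA value was under the lowest scramble value, 4 of 10 against 14.1% of all genes, and in 0 of 10 was the order the other way round, against 14.7%. At an unadjusted p under 0.05, 6 of 10 were lower, against 10.5% of all genes lower and 22.5% in either direction. DESeq2 called *RFC4* as well, 3 of 10 lower against 3.06% of all genes lower and 6.13% in either direction. The GC offset gave the same 3 genes, against 4.56% lower and 8.2% in either direction, and edgeR without a filter on low counts added *RFC2* and *POLE*, 5 of 10 against 2.65% lower and 5.54% in either direction.

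The region before the start of these genes is shown because many S phase genes share promoter letters for E2F and for the CCAAT-binding factor. RefSeq promoters were at hand for all 10 genes, and the 250 bases before each start were placed on GRCh37 by exact match. Letters searched on both strands were TTTGGCGC, TTTCCCGC, TTTCGCGC and TTTGCCGC for E2F, CCAAT for the CCAAT-binding factor and CACGTG for the E-box. The windows below belong to *PCNA* at the start of its main transcript (chr20:5100605-5100854, minus strand), to *PCNA* at its upstream start (chr20:5107269-5107518, minus strand), to *RFC5* (chr12:118454258-118454507, plus strand) and to *POLE* (chr12:133263929-133264178, minus strand). They are the genes that fell, and a polymerase gene with a match close to its start, written in the direction of transcription with every match in capitals.
PCNA, main start: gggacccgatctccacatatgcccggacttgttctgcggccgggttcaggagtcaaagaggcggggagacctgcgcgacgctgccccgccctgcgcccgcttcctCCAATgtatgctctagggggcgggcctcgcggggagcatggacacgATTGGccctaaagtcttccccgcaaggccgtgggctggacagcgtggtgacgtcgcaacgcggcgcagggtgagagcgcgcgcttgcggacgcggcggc
PCNA, upstream start: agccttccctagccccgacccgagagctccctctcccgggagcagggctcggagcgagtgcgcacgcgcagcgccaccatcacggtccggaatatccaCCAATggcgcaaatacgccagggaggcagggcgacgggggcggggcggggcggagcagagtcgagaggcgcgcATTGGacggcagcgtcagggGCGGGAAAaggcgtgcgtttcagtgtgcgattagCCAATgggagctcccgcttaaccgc
RFC5: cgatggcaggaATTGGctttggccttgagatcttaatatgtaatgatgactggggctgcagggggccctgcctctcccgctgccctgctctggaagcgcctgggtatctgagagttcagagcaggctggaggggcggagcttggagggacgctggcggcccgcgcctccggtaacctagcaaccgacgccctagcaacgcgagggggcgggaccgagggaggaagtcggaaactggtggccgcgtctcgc
POLE: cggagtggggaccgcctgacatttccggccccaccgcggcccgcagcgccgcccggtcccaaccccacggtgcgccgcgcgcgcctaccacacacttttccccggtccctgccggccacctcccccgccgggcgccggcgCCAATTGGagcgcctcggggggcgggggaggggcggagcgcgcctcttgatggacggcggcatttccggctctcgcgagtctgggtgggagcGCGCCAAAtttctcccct

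At the main start of each gene (for *POLD1* 24 bases from it), 3 of 10 windows held a match to the E2F letters, those of *RFC3*, *POLA1* and *POLE*, while 2.79% of 35116 human promoter windows of the same length held one. The 35116 windows include more than 1 start for some genes, *PCNA* and *POLD1* among them, and were not matched for GC content. *PCNA* held none at its main start and 1 at its upstream start, 59 bases before it. The *POLE* match began 18 bases before the start, that of *RFC3* 55 bases and that of *POLA1* 137 bases. CCAAT was found in 5 of 10 windows, against 32% of all windows, with 2 matches each in *PCNA* and *POLE*. In *POLE* both matches overlap each other on opposite strands. CACGTG, the letters bound by MYC, was found only in *FEN1*, 30 bases before its start, and in 6.34% of all windows. None of *PCNA*, *RFC2*, *RFC4* and *RFC5* held E2F letters at the main start. A match describes letters in the window and does not show that a factor binds there.

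*PCNA* (ENSG00000132646, chromosome 20, 5095599 to 5107272, minus strand of GRCh37) was the most abundant of the 10. It had 527, 519 and 598 CPM in scramble replicates 1 to 3 and 351, 370 and 396 CPM in siRNA replicates 1 to 3. All siRNA libraries lay well below all scramble libraries, and siRNA replicate 1 was the lowest. The fitted log2 change came to -0.56 ± 0.12 (SE; edgeR adjusted p = 0.0191), with a 95% interval from -0.82 to -0.30. It rests on 1977 to 5223 raw counts in the scramble and 2530 to 3375 in the siRNA libraries. The value moved little when libraries were left out, between -0.60 and -0.49, but the call was lost without scramble replicate 1, 2 or 3 or siRNA replicate 2, with adjusted p values of 0.0698, 0.0644, 0.0842 and 0.0716. In bulk RNA, fewer cells in S phase and less RNA per cell cannot be told apart.

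**Figure D1:**
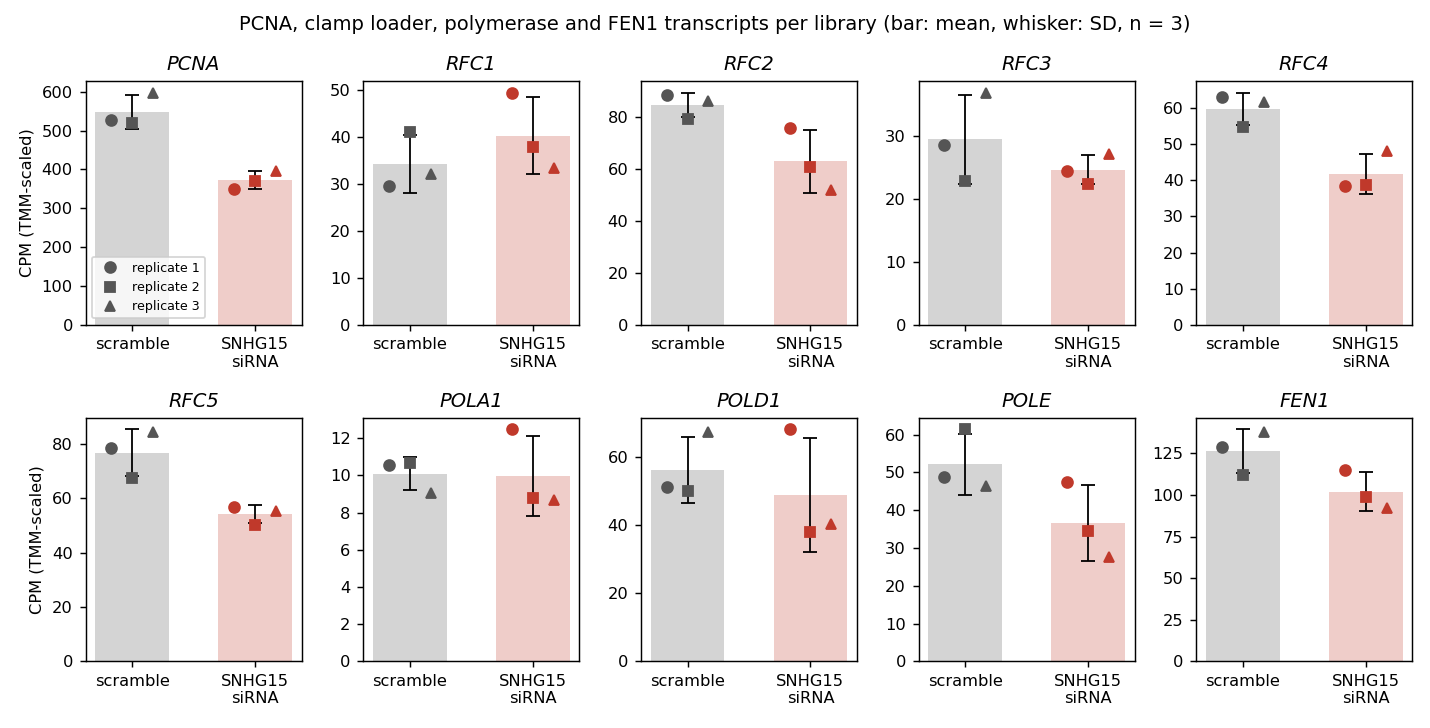
TMM-scaled CPM of each gene in the 3 scramble (grey) and 3 *SNHG15* siRNA (red) libraries, with symbols for replicates, bars for the mean and whiskers for the SD. The siRNA libraries of *PCNA* sit between 351 and 396 CPM, below all scramble libraries, while *RFC1*, *POLA1* and *POLD1* overlap.

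Processed copies of *PCNA*, *RFC3*, *RFC5* and *FEN1* can draw reads away from their parents. The 6 annotated copies with a row in the table had at most 2 counts in any library. *RFC5* ends over the opposite strand of *WSB2*, from 118470492 to 118470935, and *RFC4* shares 3′ end bases with *EIF4A2* from 186507669 to 186507686. The setting for strand during counting is not given in the sources used here, so reads in these stretches could belong to either gene. The annotated span of *FADS2* covers *FEN1* on the same strand from 61560452 to 61564710, with 38 to 111 counts for *FADS2* against 456 to 1128 for *FEN1*. An intron of *POLA1* holds the processed pseudogene *EEF1B2P3* on the opposite strand, with 160 to 523 counts.

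Among the loader genes, the small subunits had log2 fold changes between -0.51 and -0.22 and the large subunit had 0.22. *RFC5* (ENSG00000111445, chromosome 12, 118451393 to 118470935) had 78.4, 67.3 and 84.4 CPM in scramble replicates 1 to 3 and 56.7, 50.3 and 55.4 CPM in the siRNA libraries. The siRNA values were close together and below all scramble values. On the log2 scale its change was -0.50 ± 0.13 (SE; edgeR adjusted p = 0.0491), just under the threshold. With 1 library left out it passed in 1 of 6 fits, the one without siRNA replicate 1 (adjusted p = 0.0281), and without the others the adjusted p was between 0.0747 and 0.162. With all 6 libraries it passed in 6 of 9 alternatives, and among the others the adjusted p was 0.0669 with upper-quartile scaling and 0.0592 where all 6 libraries had to hold 10 or more counts.

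*RFC4* (ENSG00000163918, chromosome 3, 186507669 to 186524847), another of the small ATPase subunits, had 63.0, 54.7 and 61.7 CPM in the scramble libraries and 38.4, 38.8 and 48.2 CPM in the siRNA libraries. The conditions did not overlap, and siRNA replicates 1 and 2 were nearly equal. The log2 fold change of -0.51 (standard error 0.14) missed the threshold in edgeR (adjusted p = 0.0547). With DESeq2 the adjusted p was 0.0307 and with the GC offset 0.0324, both below it. It passed in 4 of 9 alternatives with all libraries, and edgeR gave adjusted p = 0.0719 with upper-quartile scaling. With 1 library left out it passed in 1 of 6 fits, the one without siRNA replicate 3 (edgeR adjusted p = 0.0331). Among the other left-out fits the adjusted p reached 0.181.

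*RFC2* (ENSG00000049541, chromosome 7, 73645829 to 73668788) had 88.4, 79.2 and 85.9 CPM in the scramble libraries against 75.7, 60.7 and 51.9 CPM in the siRNA libraries. The spread among siRNA libraries was wide, and siRNA replicate 1 came near the lowest scramble library. The fitted log2 change came to -0.43 ± 0.15 (SE; edgeR adjusted p = 0.109), and without siRNA replicate 1 it was -0.59 (adjusted p = 0.0130). Without siRNA replicate 3 it was -0.30 (edgeR adjusted p = 0.258). *RFC2* passed in 1 of 6 fits with a library left out. *RFC3* (ENSG00000133119, chromosome 13, 34392206 to 34540695) had 28.6, 22.9 and 36.9 CPM against 24.4, 22.4 and 27.1 CPM, so that the siRNA libraries lay mostly within the scramble range. Its log2 fold change was -0.22 with a 95% interval from -0.61 to 0.16 (adjusted p = 0.492 from edgeR).

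*RFC1* (ENSG00000035928, chromosome 4, 39289076 to 39367995), the large subunit that binds DNA and PCNA, had 29.5, 41.2 and 32.1 CPM in the scramble and 49.5, 38.0 and 33.5 CPM in the siRNA libraries. Only siRNA replicate 1 stood above the scramble range. The log2 fold change of 0.22 had a 95% interval from -0.16 to 0.61 (adjusted p = 0.491 from edgeR), and it was 0.04 without siRNA replicate 1. Per kilobase of transcript, the mean of *RFC2* to *RFC5* was 5.24 ± 1.24 times the level of *RFC1* in the scramble libraries and 3.22 ± 0.538 times in the siRNA libraries (SD, n = 3 each). The ratios were 6.11, 3.81 and 5.78 against 2.72, 3.15 and 3.79, which do not overlap but lie close at 3.81 and 3.79. The ratio of *PCNA* to *RFC1* was 68.2, 48.2 and 71.2 in the scramble and 27.0, 37.2 and 45.2 in the siRNA libraries, also without overlap. The other ratios computed, which leave out *RFC1*, overlapped between conditions, and ratios of further pairs were not computed. That of *PCNA* to *FEN1* was 6.46, 7.32 and 6.85 against 4.83, 5.91 and 6.80, and the means were 65.8 ± 13.7 against 66.3 ± 21.2 for *PCNA* to *POLE*, 2.53 ± 0.736 against 3.04 ± 0.461 for *POLD1* to *POLE*, and 0.873 ± 0.0180 against 0.854 ± 0.265 for *RFC4* to *RFC2* (SD, n = 3 each). These ratios were read from the same counts and carry no test.

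**Figure D2:**
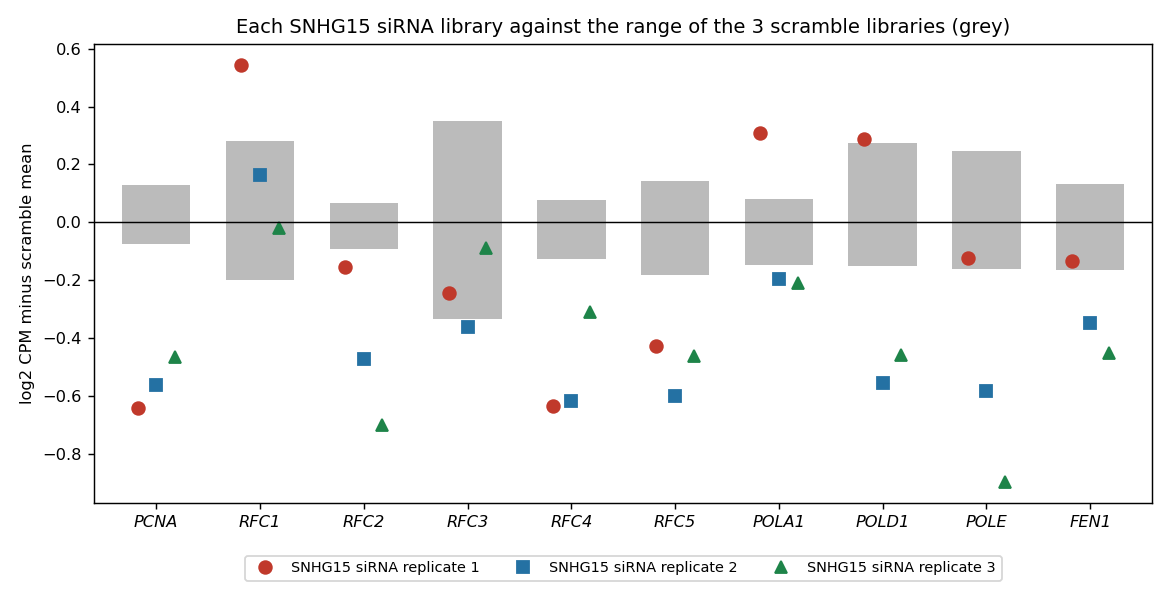
Log2 CPM of each *SNHG15* siRNA library minus the mean of the 3 scramble libraries, with the range of the scramble libraries in grey. *PCNA*, *RFC2*, *RFC4* and *RFC5* lie below the grey range in all siRNA libraries, while for *RFC1*, *POLA1* and *POLD1* siRNA replicate 1 lies above it.

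In each gene of a catalytic subunit siRNA replicate 1 was the highest siRNA library. *POLE* (ENSG00000177084, chromosome 12, 133200339 to 133263962) had 48.7, 61.4 and 46.3 CPM in the scramble libraries and 47.4, 34.5 and 27.7 CPM in the siRNA libraries. siRNA replicate 1 lay within the scramble range, and the other siRNA libraries lay below it. On the log2 scale its change was -0.52 ± 0.19 (SE; edgeR adjusted p = 0.126), and without siRNA replicate 1 it was -0.76 (adjusted p = 0.0129). Without siRNA replicate 3 it was -0.35 (edgeR adjusted p = 0.286) and without scramble replicate 2 -0.38 (adjusted p = 0.417). *POLE* passed in 1 of 6 fits with a library left out.

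*POLD1* (ENSG00000062822, chromosome 19, 50887461 to 50921275) had 51.3, 50.2 and 67.4 CPM in the scramble and 68.2, 38.0 and 40.5 CPM in the siRNA libraries. siRNA replicate 1 was the highest of all 6 libraries, and the other siRNA libraries were the lowest. The fitted log2 change came to -0.19 ± 0.21 (SE; edgeR adjusted p = 0.634), -0.50 without siRNA replicate 1 (adjusted p = 0.0588), and -0.33 with the GC offset (adjusted p = 0.246). Without siRNA replicate 2 it was -0.04 (edgeR adjusted p = 0.949). The longest transcript of *POLD1* holds 63.9% G and C, the highest share of the 10 genes, whose lowest is 38.0% in *RFC3*.

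*POLA1* (ENSG00000101868, chromosome X, 24711990 to 25015103) was the least abundant, with 30 to 107 raw counts per library. It had 10.5, 10.6 and 9.07 CPM in the scramble and 12.5, 8.77 and 8.69 CPM in the siRNA libraries, with siRNA replicate 1 the highest of all. The log2 fold change was -0.04 with a 95% interval from -0.47 to 0.39 (adjusted p = 0.934 from edgeR), which holds changes in either direction, and with upper-quartile scaling the value lay just above 0, at 0.0028. *FEN1* (ENSG00000168496, chromosome 11, 61560383 to 61564710) had 129, 112 and 138 CPM in the scramble and 115, 99.0 and 92.1 CPM in the siRNA libraries. The conditions overlapped between siRNA replicate 1 and scramble replicate 2. On the log2 scale its change was -0.31 ± 0.13 (SE; edgeR adjusted p = 0.192).

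siRNA replicate 1 held the highest of the siRNA values in 7 of the 10 genes, and in 39.4% of all genes tested. Without it, *PCNA*, *RFC2*, *RFC5* and *POLE* passed the threshold, 4 of 10 against 3.02% of all genes called lower and 6.34% in either direction in that fit, and 8 of 10 genes lay lower in every remaining siRNA library, against 20.2% of all genes. Without siRNA replicate 2, or without any single scramble library, none of the 10 passed with edgeR. Over all genes, 115 were called lower without siRNA replicate 2, and 80, 66 and 111 without scramble replicates 1, 2 and 3. These fits tested between 12658 and 12888 genes. The part of siRNA replicate 1 in these values was not tested beyond leaving it out.

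**Figure D3:**
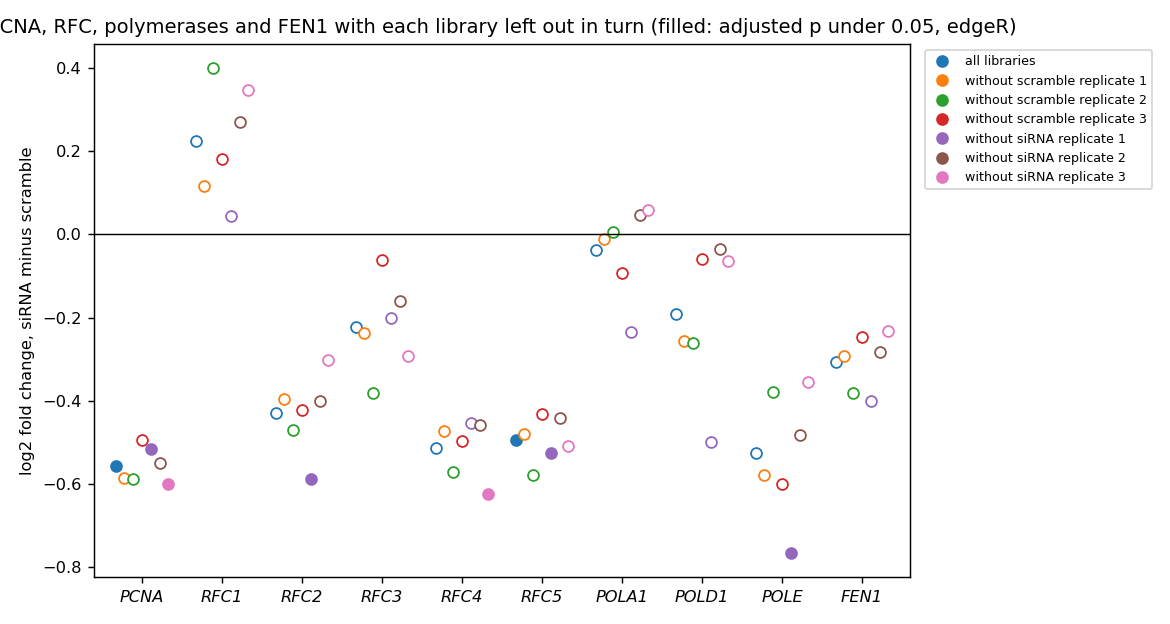
Log2 fold change of each gene with all 6 libraries and with each library left out in turn, with filled points for an adjusted p under 0.05 from edgeR. *POLE* reaches -0.76 and *RFC2* -0.59 without siRNA replicate 1, against -0.35 and -0.30 without siRNA replicate 3. *PCNA* stays between -0.60 and -0.49.

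Levels can be compared between genes only per length. In RPKM, here TMM-scaled CPM per kilobase of the MANE transcript, *PCNA* had 430 ± 33.8, *FEN1* 62.7 ± 6.47, *RFC2* 50.1 ± 2.82, *RFC4* 43.8 ± 3.28 and *RFC5* 36.5 ± 4.11 in the scramble libraries (SD, n = 3 each). *POLD1* followed with 16.4 ± 2.80, *RFC3* with 12.8 ± 3.06, *RFC1* with 7.03 ± 1.26, *POLE* with 6.66 ± 1.04 and *POLA1* with 1.84 ± 0.160 RPKM (SD, n = 3 each). Neighbours in this order overlapped between libraries for *RFC4* and *RFC5*, for *POLD1* and *RFC3*, and for *RFC1* and *POLE*. The order of means was the same in the siRNA libraries, where *PCNA* had 292 ± 18.0 RPKM and *POLA1* 1.82 ± 0.394 RPKM (SD, n = 3 each). With the length of all annotated exons in place of the MANE transcript, *RFC4* and *RFC5* changed places. The clamp transcript was thus several times above any other, and *RFC1*, *POLE* and *POLA1* lay lowest.

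The genes most like *PCNA* were sought among the other 12506 genes tested, by the root mean square difference of log2 CPM over the 6 libraries, centred on the scramble mean. Among the 5 nearest outside the replication core were *TRIM14* (0.0585), *KPNB1* (0.0610), the nuclear import receptor importin beta, *TAF12* (0.0626), a subunit of TFIID, and *CSTPP1* (0.0635). *TRIM14* had 118, 128 and 131 CPM in the scramble and between 81.4 and 87.6 CPM in the siRNA libraries. Of the 10 genes, *RFC4* ranked 44 and *RFC5* ranked 70 in likeness to *PCNA*, and *RFC1* ranked 9330. The others lay between rank 1143 for *FEN1* and rank 6057 for *POLA1*.

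Of 8 partner subunits of the polymerases and primase tested, 1 fell, *POLD2*, the subunit of polymerase delta that joins the catalytic subunit to the others, from 416 ± 9.17 to 288 ± 48.0 CPM (SD, n = 3 each), with 420, 406 and 423 CPM against 335, 291 and 239 CPM. The fitted log2 change came to -0.53 ± 0.14 (SE; edgeR adjusted p = 0.0402), and it passed in 6 of 9 alternatives with all libraries, the call being lost with upper-quartile scaling and with a minimum of 10 counts in each library, among others. With 1 library left out it passed only without siRNA replicate 1, and the adjusted p was between 0.101 and 0.133 without any other. The primase gene *PRIM1* had the largest value, -0.57, at 41, 49 and 20 raw counts against 22, 25 and 31 (adjusted p = 0.182 from edgeR). *POLE3*, a small subunit of polymerase epsilon, was the only one above 0, at 0.17 (adjusted p = 0.425). *POLD4* had too few counts to be tested. The median of the 8 was -0.33.

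**Figure D4:**
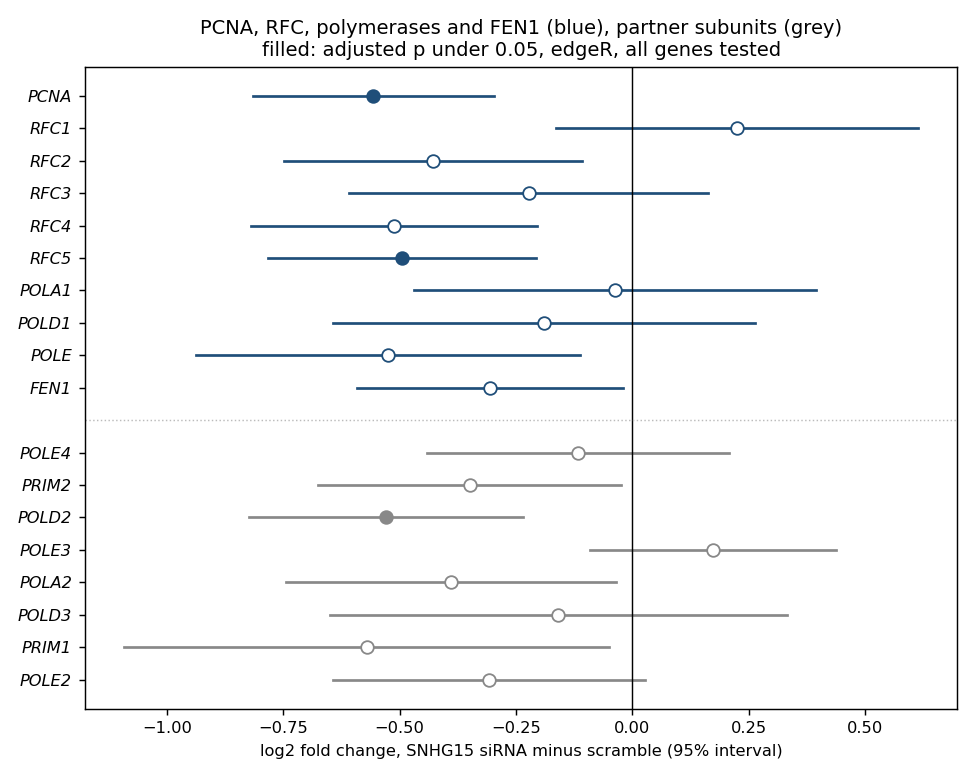
Log2 fold change with its 95% interval for the 10 genes (blue) and 8 partner subunits of polymerases and primase (grey), with filled points for an adjusted p under 0.05 from edgeR. *PCNA*, *RFC5* and *POLD2* are filled, and the intervals of *RFC1*, *RFC3*, *POLA1* and *POLD1* include 0.

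Other clamps and loaders, among them the checkpoint clamp of RAD9A, RAD1 and HUS1 and the unloader ATAD5, had 0 of 8 genes past the threshold with edgeR, 3 at an unadjusted p under 0.05, all lower, and a median of -0.30. *ATAD5* had the value farthest from 0, 0.41, from 6.89 ± 0.993 to 9.16 ± 1.31 CPM (SD, n = 3 each; adjusted p = 0.258). Of the 8, 4 had all siRNA libraries below all scramble libraries, against 14.1% of all genes, and 1, *ATAD5*, above, against 14.7%. With DESeq2 0 of them passed, while edgeR called *CHTF18*, a subunit of an alternative loader, lower with the GC offset and without siRNA replicate 1, in 1 of 9 and 1 of 6 fits. Of 7 genes for Okazaki fragments and single-strand DNA, 1 fell, *LIG1*, the ligase that seals the fragments, with 59.1, 51.8 and 65.0 CPM against 47.1, 30.9 and 26.8 CPM. On the log2 scale its change was -0.74 ± 0.19 (SE; edgeR adjusted p = 0.0438), and *LIG1* passed in 7 of 9 alternatives with all libraries, all but upper-quartile scaling and the minimum of 10 counts in each library. With 1 library left out it passed only without siRNA replicate 1, and the adjusted p was between 0.0990 and 0.137 without any other. *DNA2*, a nuclease for long flaps, had 1.09 on 10, 13 and 7 raw counts against 30, 14 and 24 (adjusted p = 0.104), a value that rests on few reads.

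Among proteins that bind or modify PCNA, 12 were tested, 1 fell and 1 rose. *CHAF1B*, a subunit of the chromatin assembly factor that PCNA recruits, had 100, 102 and 106 CPM in the scramble libraries and 50.0, 64.9 and 61.2 CPM in the siRNA libraries. The conditions were far apart (log2 fold change -0.81 ± 0.13 SE, edgeR adjusted p = 0.00569), and it passed in 6 of 6 fits with a library left out. *SHPRH*, a ubiquitin ligase for PCNA, rose from 6, 12 and 3 raw counts to 38, 20 and 27 (log2 fold change 1.96 ± 0.38 SE, edgeR adjusted p = 0.0118), from a level near the floor of 3 counts in scramble replicate 3. The call was lost without scramble replicate 1 (adjusted p = 0.0740) or scramble replicate 2 (adjusted p = 0.0543). *CDKN1A*, the inhibitor p21 that binds PCNA, had 451 ± 32.8 CPM in the scramble and 498 ± 40.1 CPM in the siRNA libraries (SD, n = 3 each; adjusted p = 0.512).

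The polymerases outside the replication fork were counted in the same way. Of 12 genes for repair, translesion and mitochondrial polymerases, 0 passed with edgeR. At an unadjusted p under 0.05, 1 was higher and 0 were lower, against 22.5% of all genes in either direction. The median was -0.05 against -0.37 for the replication core and 0.0005 for all genes. With DESeq2 0 of the 12 passed. *POLH*, which copies past ultraviolet lesions, had the value farthest from 0, 0.81, with 41, 35 and 12 raw counts against 70, 43 and 46 (adjusted p = 0.104). In CPM, all siRNA libraries lay below all scramble libraries in 1 of the 12, against 14.1% of all genes. They lay above in 2, *POLH* among them, against 14.7%. The difference between this list and the replication core was not tested.

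Of the CMG helicase, which unwinds DNA ahead of the polymerases, 3 of 11 genes fell, and the median was -0.32. They were *CDC45* (134 ± 11.8 to 80.8 ± 7.91 CPM), *MCM4* (149 ± 22.7 to 96.0 ± 1.14 CPM) and *GINS2* (128 ± 19.0 to 84.4 ± 5.69 CPM; SD, n = 3 each), with edgeR adjusted p values of 0.00761, 0.0171 and 0.0234. The call of *CDC45* was lost without scramble replicate 2 (adjusted p = 0.0514), that of *MCM4* without scramble replicate 1 or 3 or siRNA replicate 2 (0.0564, 0.0750 and 0.0576), and that of *GINS2* without these or siRNA replicate 3 (between 0.0501 and 0.1004). *GINS4* had the value farthest from 0, 0.80, from 2.54 ± 0.394 to 4.51 ± 2.58 CPM (SD, n = 3 each; adjusted p = 0.235). Among 8 genes for nucleotide supply and proliferation 3 fell and 0 rose. These were *DUT*, which removes dUTP (393 ± 18.2 to 224 ± 10.8 CPM), *RRM2*, the small subunit of ribonucleotide reductase (373 ± 28.7 to 219 ± 9.11 CPM), and *TYMS*, which makes dTMP (326 ± 23.8 to 213 ± 9.83 CPM; SD, n = 3 each), with adjusted p values of 0.00372, 0.00507 and 0.0112 from edgeR. *DUT* and *RRM2* passed in all 6 fits with a library left out, and *TYMS* missed without scramble replicate 1 (adjusted p = 0.0641) or 3 (adjusted p = 0.0544). The proliferation marker *MKI67* had a log2 fold change of -0.07 (adjusted p = 0.833), and *TOP2A* had 0.95 on 56, 71 and 19 raw counts against 139, 51 and 99 (adjusted p = 0.0791), the value farthest from 0 in that list. In CPM, all siRNA libraries lay below all scramble libraries in 3 of these 8, against 14.1% of all genes, and above in 1, *TOP2A*, against 14.7%.

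The E2F and RB family was measured beside them because these factors act on replication genes. Of 13 genes 2 fell, *E2F4*, mostly a repressor, from 236 ± 23.7 to 161 ± 15.6 CPM (SD, n = 3 each), and *RBL1*, its partner p107, from 27.8 ± 2.11 to 19.2 ± 0.803 CPM (SD, n = 3 each), with adjusted p values of 0.0259 and 0.0459 from edgeR. DESeq2 called 1 of the 13. *E2F4* missed without any 1 scramble library or siRNA replicate 2 (adjusted p between 0.0556 and 0.134), while *RBL1* passed only without siRNA replicate 1 (between 0.0842 and 0.192 otherwise) and, with all libraries, in 5 of 9 alternatives. *RBL2*, the related p130, had the value farthest from 0, 0.73, from 2.16 ± 0.780 to 3.57 ± 0.0910 CPM (SD, n = 3 each; adjusted p = 0.193). Of the 13, 4 had all siRNA libraries below all scramble libraries, against 14.1% of all genes. The order was the other way in 2, *RBL2* among them, against 14.7%. *E2F1*, the activator, had 43.5 ± 2.43 CPM against 37.7 ± 7.82 CPM (SD, n = 3 each; edgeR adjusted p = 0.475), with overlapping conditions.

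**Figure D5:**
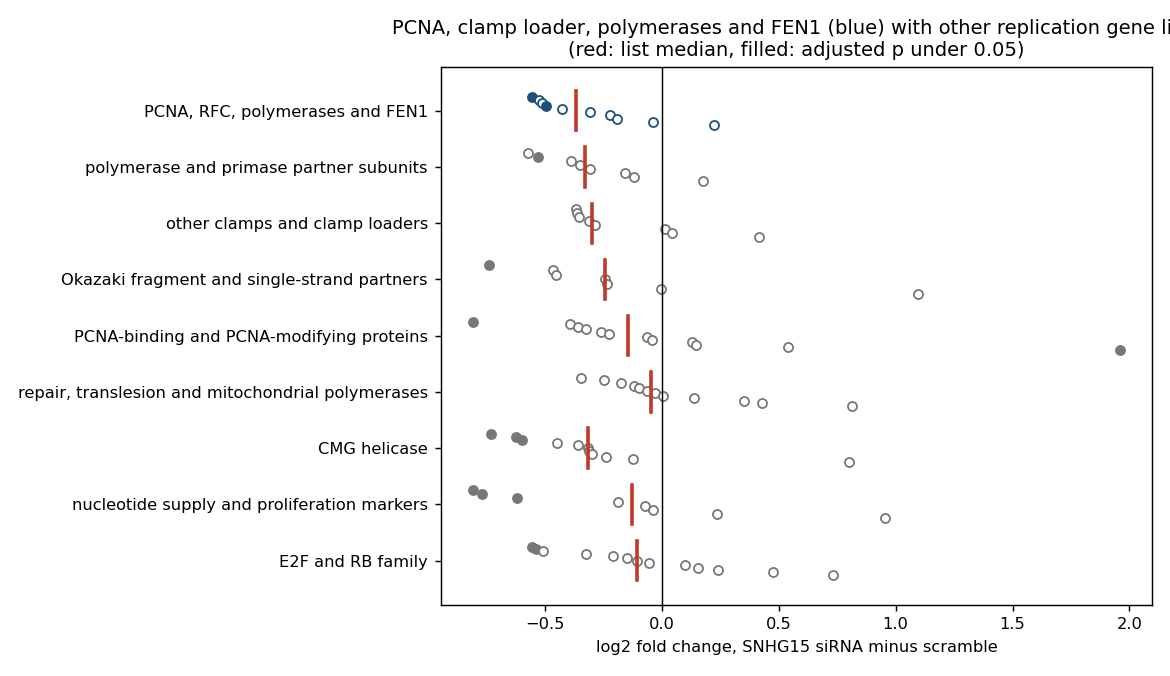
Log2 fold change of each tested gene of the replication core (top, blue) and of 8 other lists (grey), with filled points for an adjusted p under 0.05 from edgeR and a red line at each median. The medians of the core, the partner subunits and the CMG helicase lie at -0.37, -0.33 and -0.32, and that of the repair and translesion polymerases at -0.05. The other medians lie between these, at -0.30 for other clamps and loaders and -0.24 for Okazaki fragment partners. They are -0.15 for proteins that bind or modify PCNA, -0.13 for nucleotide supply and proliferation, and -0.11 for the E2F and RB family.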

How the data were processed

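RNA from cells labelled LoVo was sequenced by the authors in 3 libraries for each of both transfections (75 bp paired-end, stranded mRNA kit). The authors deposited counts of reads per Ensembl gene on hg19, without normalization. The paper's methods name bowtie2, while the submitters' processing notes name STAR and featureCounts. Versions, annotation, strand setting and the handling of multiply placed reads are not given in the sources used here, and the deposited counts could lack reads of genes with near-identical copies. Groups and replicate numbers came from the sample titles, and 0 columns were left unassigned.

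The tests used edgeR 4.0.16 under R 4.3.3, with filterByExpr (minimum count 10, total 15), TMM scaling and the quasi-likelihood test without a block, over 12507 of 63677 genes, with Benjamini-Hochberg adjustment. Standard errors are the absolute fold change divided by the root of F. DESeq2 1.42.0 was one of the alternatives. The scripts were tested on simulated counts first. Names and positions came from GENCODE release 44 on GRCh37, in which 8012 of the table's identifiers had no entry, and the row of *UHRF1* was not matched. Promoters came from RefSeq.

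Named genes were the 10 of the replication core, *SNHG15*, the genes past the threshold (up to 3) and the one farthest from 0 in each list, the 5 most like *PCNA*, of which 1 is not reported here, and copies of the 10. *CDKN1A*, *MKI67*, *E2F1*, *POLE3*, *CHTF18*, *CDH1* and *KRT8* were named after their values were seen. The 10 genes and the lists were chosen with earlier results of these data known. Library totals of 3446922 to 10256710 counts set the precision. The p values judge the difference between conditions against the spread between replicates, which the methods call biological. No siRNA sequence or seed match was analysed here.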

Additional observations from a re-analysis of the deposited data

How the results depend on the processing

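The 10 genes kept the sign of their fold change in all 9 alternatives with 6 libraries and all 6 fits without a library, except *POLA1*, which was 0.0028 with upper-quartile scaling and between -0.23 (without siRNA replicate 1) and 0.060 (without siRNA replicate 3) when a library was left out. *PCNA* passed in 9 of 9 alternatives with all libraries and in 2 of 6 fits without one. The count of the 10 genes past the threshold was 2, but 1 with upper-quartile scaling, 1 with at least 10 counts in every library, 5 without a filter on low counts, and between 0 and 4 without a library. The number of all genes called lower moved as well. It was 279 in the main fit, 230 with upper-quartile scaling, 202 with at least 10 counts in every library and 627 without a filter. When a library was left out, it lay between 66 and 387. These fits tested different numbers of genes, so the counts are not on one scale. The share called lower was 2.23% of 12507 genes in the main fit and 2.65% of 23675 genes without a filter. Whether the moves in the count are particular to the 10 genes was not tested. The count of the 10 genes with non-overlapping lower values was 4, against 14.1% of all genes. Without a library it was between 4 and 8, the highest without siRNA replicate 1, where the share of all genes was 20.2%. Leaving a library out of the same values cannot lower this count. Over all genes, 671 passed, 1312 without a filter, 1025 with the GC offset, and between 139 and 812 without a library, the lowest without scramble replicate 2. With the replicate number as a block, 1 of the 10 genes (*PCNA*) and 543 genes in all passed, the adjusted p of *RFC5* being 0.0658 and *POLD2* and *RBL1* also missing the threshold, and with the block and the GC offset 3 and 841. Same-numbered libraries had correlations of deviations of -0.07, 0.16 and -0.04, and other pairs between -0.17 and 0.14. Not every library correlated best with its own number. With 3 libraries a condition, these values cannot tell whether the numbers pair libraries. *SNHG15* passed under each alternative that holds it, and the fit on protein-coding genes leaves it out. The cause of these differences was not tested. With 3 libraries a condition, the intervals of *RFC1*, *RFC3*, *POLA1* and *POLD1* include 0, and *POLA1* rests on the fewest reads.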
